A study of Rattus norvegicus with 6 samples.

Results

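Cd83, Icam1, Vcam1, Cd40 and Cd274 encode surface proteins whose genes are known targets of TNF-α, and they are described here in rat chondrocytes given TNF-α with or without a later exposure to Nanofat lysate (NFL). These 5 of the 18420 genes in the deposited table were chosen by their symbols, with the difference between the groups already known, so the values below are descriptions and carry no test of the 5 genes as a set. Cells came from the cartilage of male Sprague-Dawley rats of wild-type genotype and were used at the third passage. The TNF-α group (n = 3) received 10 ng/mL TNF-α and is labelled 6 h. The TNF-α+NFL group (n = 3) received the same TNF-α exposure and then NFL for 24 h, and is labelled 30 h. NFL is the fluid left after Nanofat, here a suspension of cells released from rat fat by collagenase, was lysed by freezing and thawing. The groups therefore differed in harvest time as well as in NFL, and the contributions of the 2 cannot be told apart. Both groups carried TNF-α, and cells without TNF-α were not analysed here, so no value below measures induction by TNF-α.

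RNA was read as polyadenylated transcripts by single-end sequencing, and each library held between 19344893 and 19725135 estimated counts. TNF-α replicate 1 stood apart from the other libraries in a few genes of myeloid cells, among them Csf1r with 40 counts in that library and from 1 to 7 in the other 5. Leaving it out raised the genes called lower in TNF-α+NFL from 27 to 470. No gene was targeted in this design that could check the group labels. The column headings of the study's own list of changed genes can also be read in the opposite direction, so every direction below holds for the libraries as they are labelled. Nothing in the labels says that the replicates came from separate animals, and error estimates measure the spread between these libraries.

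TNF-α binds its receptor and releases NF-κB from its inhibitors, and NF-κB dimers then bind short sites in promoters and enhancers. Icam1 and Vcam1 are immunoglobulin-family adhesion receptors that leukocytes grip through integrins. Cd40 is a member of the TNF receptor superfamily that signals through TRAF adaptors, and Cd274, also called PD-L1, is the ligand of the inhibitory receptor PD-1 on T cells. Cd83 is an immunoglobulin-family glycoprotein best known as a marker of mature dendritic cells, where it keeps MHC class II and costimulatory proteins at the cell surface.

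The known link to NF-κB is the reason for showing the promoter sites. RefSeq promoters of the GRCr8 build, spanning 250 bases before to 50 after each transcription start, were at hand for 4 of the 5 genes, all but Cd40. The NF-κB consensus was searched on both strands, and capitals mark the match.
Vcam1, bases -93 to -84 from the start: tccccttgaaGGGATTTCCCtccgcctctc
Cd83, bases 25 to 34: ccggcgcgcgGGGAAGTCCCaagcgcgggt
Cd83, bases -1 to 9: tcctccggctGGGGAGTCCCcggggccggc
Icam1, bases -219 to -210: tacttcagttTGGAAATTCCtgggtcgcag
The Vcam1 line is chr2:206742857-206742886 and lies on the minus strand. The Cd83 lines are chr17:21112634-21112663 and chr17:21112659-21112688, also on the minus strand, and the second of them overlaps a further match 1 base along. The Icam1 line is chr8:27829616-27829645 on the plus strand. Its promoter held no match to the general consensus, and the site shown matches a separate consensus, that of the p65 and c-Rel subunits, a search added after the sequences had been seen. Of all 33469 promoters, 7.51% held the general consensus and 7.73% the p65 and c-Rel consensus. The Cd274 window held neither.

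Other motifs separated the same 4 promoters. The TATA-box sequence TATAAA was searched on both strands across the whole window and was found in 14.2% of all promoters. It lay at bases -53 to -48 in the promoter of Icam1, at -62 to -57 and -60 to -55 in that of Vcam1, and at -188 to -183 in that of Cd274. It was not found in that of Cd83, which had 33 CpG dinucleotides, where 92.5% of promoters had fewer, and a GC content of 68.0% against a median of 51.7%. An element for interferon regulatory factors was found in Vcam1 alone of the 4 and in 3.92% of promoters. None of the 4 held the AP-1 site TGANTCA, which 7.33% of promoters held. These matches are letters in a window, and no binding was measured.

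Levels per transcript length spanned nearly 3 orders of magnitude among the 5 genes. On the TPM scale, which corrects for length, Icam1 averaged 1024 ± 48.2 in TNF-α and 1057 ± 11.9 in TNF-α+NFL libraries (SD, n = 3 each), and ranked 156 of 18420 genes. Vcam1 followed at 142 ± 9.34 and 141 ± 12.8 TPM, and Cd83 at 22.5 ± 0.533 and 16.4 ± 0.610 TPM. Cd274 stood at 2.13 ± 0.114 and 2.25 ± 0.0950 TPM, and Cd40 at 1.45 ± 0.0889 and 1.21 ± 0.0153 TPM. No library of one gene reached the range of its neighbour in this order, so the order of levels was the same in all 6 libraries. Icam1 alone made up from 85.7% to 87.7% of the summed TPM of the 5.

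**Figure D1:**
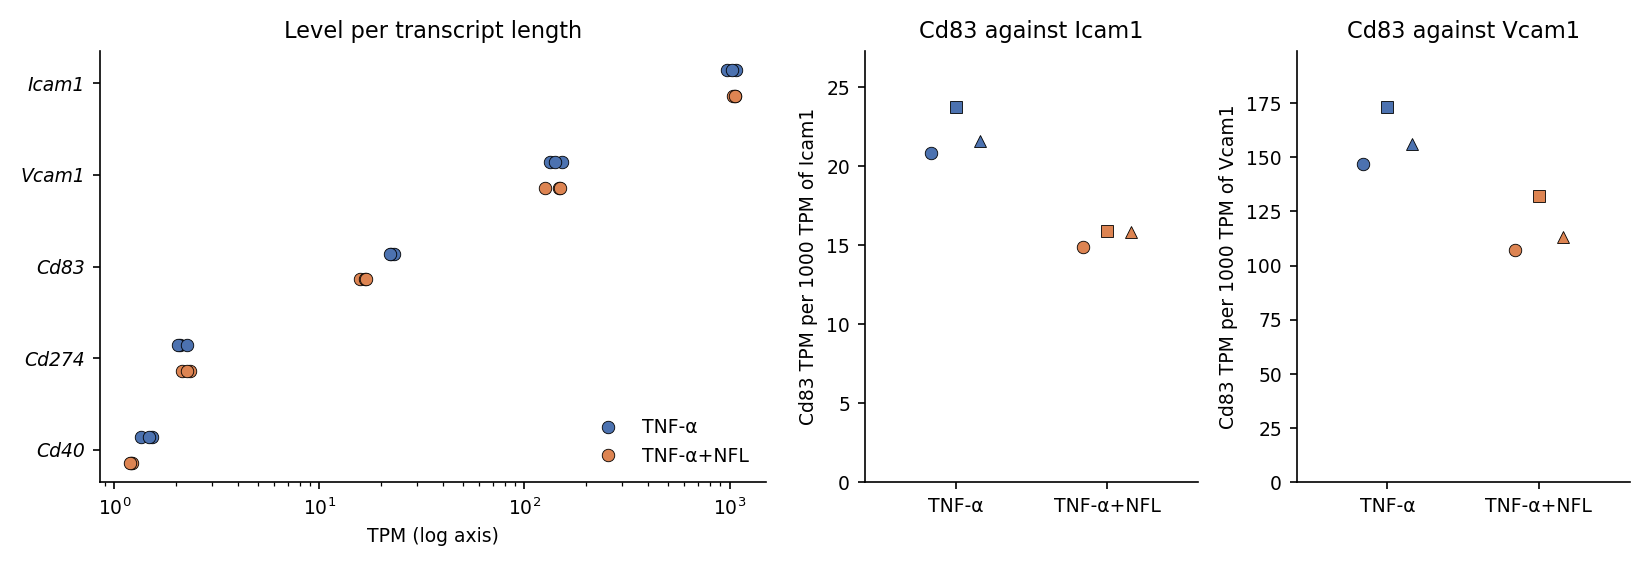
Left, TPM of each gene in the 6 libraries on a log axis, with 1 point per library and colours for the groups. Middle and right, Cd83 TPM per 1000 TPM of Icam1 and of Vcam1, where circles, squares and triangles are replicates 1, 2 and 3. Icam1 lies near 1000 TPM and Cd40 near 1 TPM, and both ratios are lower in every TNF-α+NFL library than in any TNF-α library.

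Cd83 was lower in TNF-α+NFL than in TNF-α libraries, and it was the 1 gene of the 5 that was called. The libraries labelled TNF-α held 453, 501 and 484 estimated counts, and those labelled TNF-α+NFL held 328, 343 and 354. Scaled to library size (CPM, a count relative to the library's total after TMM adjustment) these were 23.7, 25.4 and 24.5 against 16.7, 17.6 and 18.0. The groups did not overlap, and the lowest TNF-α library lay well above the highest TNF-α+NFL library. The mean was 24.5 ± 0.823 CPM against 17.4 ± 0.645 CPM (SD, n = 3 each). The log2 fold change was -0.49 with a standard error of 0.062 and a 95% interval from -0.63 to -0.36, which is 0.712 times the TNF-α level. Cd83 passed the call used here, an adjusted p under 0.05 in the edgeR fit across all 13250 genes tested. The call was lost without TNF-α+NFL replicate 1, where the log2 fold change was -0.46.

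Among the genes called lower, Cd83 was the 2nd of 27 by size of change and the 3rd of 27 by adjusted p. It was the 5th of all 81 called genes by size. Since these measures chose it, the places are descriptive. At the threshold itself, the last gene inside was Fam162a (log2 fold change -0.25) and the first outside was Coro1c (0.18). Of the 5 surface molecule genes, 1 was called lower and 0 higher, beside 0.204% called lower and 0.408% called higher among all genes tested. An unadjusted p under 0.05 was reached by 1472 genes, and DESeq2 called 53 genes lower and 95 higher, without giving Cd83, Cd40 or Cd274 an adjusted p. The default filter of DESeq2 sets aside genes of low mean count, so genes with fewer counts than Cd83 could not be called by it. Groups that did not overlap were found for 2 of the 5, Cd83 and Cd40, and for 16.8% of all genes tested.

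**Figure D2:**
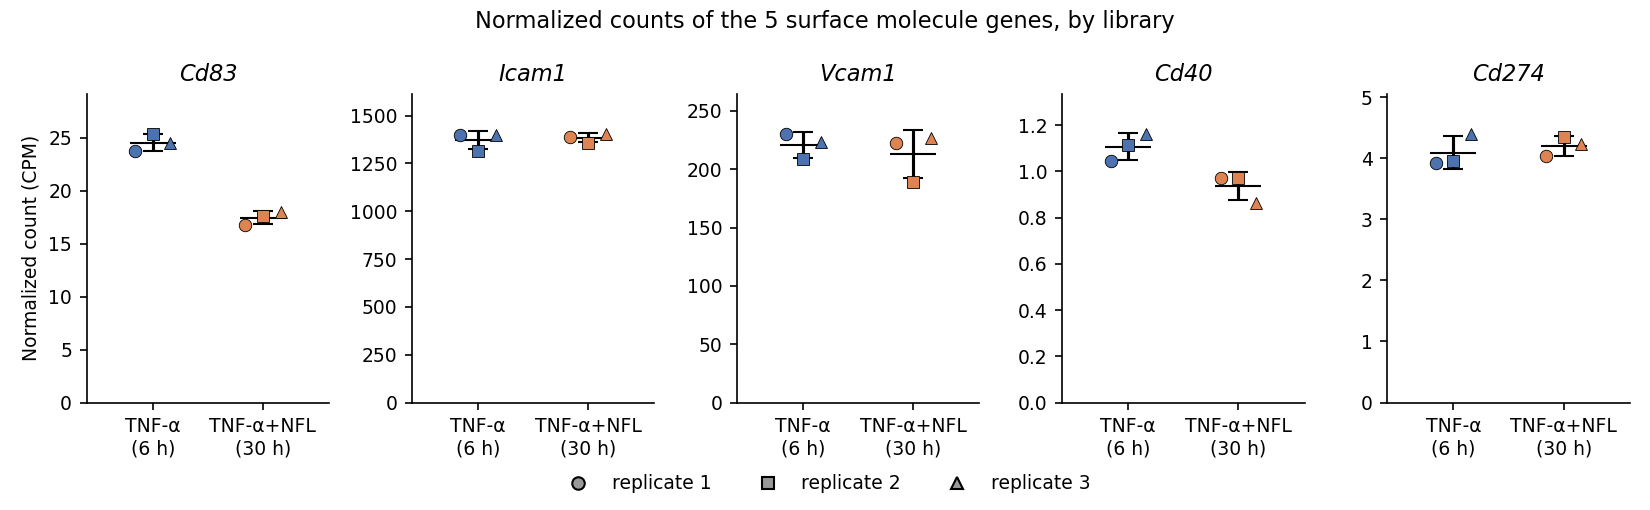
Normalized counts (CPM) of each gene in the 6 libraries, on axes that start at 0. Coloured points are libraries, with the marker giving the replicate number, and the black line and bars are the mean and SD of the 3 libraries of a group. The Cd83 groups lie apart (23.7 to 25.4 against 16.7 to 18.0), while those of Icam1, Vcam1 and Cd274 overlap.

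Cd83 was also set against the adhesion genes of the same library, as a description of the balance between them. Cd83 stood at 20.9, 23.7 and 21.6 TPM per 1000 TPM of Icam1 in the TNF-α group, and at 14.9, 15.9 and 15.8 in the TNF-α+NFL group. Against 1000 TPM of Vcam1 it was 147, 173 and 156, and then 107, 132 and 113. Neither pair of ranges overlapped. With Icam1 and Vcam1 near level between the groups, these ratios restate the Cd83 values and add no separate evidence.

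Because Cd83 marks mature dendritic cells, markers of macrophages and dendritic cells were read beside it. Of 18 listed markers, 15 were in the table and 3 (Cd14, Cd68 and Cd74) had enough counts to test. None was called by edgeR or limma-voom, 1 had an unadjusted p under 0.05, and all 3 had negative log2 fold changes, with a median of -0.17. DESeq2 also called none, but could not call Cd74, which had far fewer counts than Cd83. The 15 markers together summed to 80.5 to 84.1 counts in every 1000000 of a library's total in the TNF-α group and to 71.4 to 72.9 in the TNF-α+NFL group, before any TMM adjustment, and most of this was Cd14 and Cd68, which cells other than macrophages also express. Defining markers of dendritic cells were near 0. Ccr7 and Clec9a had 1 count in 1 library and 0 in the others, Flt3 had 4 counts in 1 library, and RT1-Da, an MHC class II gene, was at 0 in all 6. Tyrobp and Lyz2 were at 11 and 15.0 counts in TNF-α replicate 1 and at 0 elsewhere. Without that library the Cd83 log2 fold change was -0.51, against -0.49 with all 6 libraries. Whether myeloid cells contributed to the Cd83 difference was not tested.

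Icam1, which binds the leukocyte integrins LFA-1 and Mac-1, was abundant and close to level between the groups. Its estimated counts were 26756, 25998 and 27649 in the TNF-α libraries and 27199, 26538 and 27596 in the TNF-α+NFL libraries. The 2 ranges overlapped almost fully, and replicate 2 was the lowest in each group. Mean CPM was 1371 ± 48.2 against 1384 ± 23.3 (SD, n = 3 each). The log2 fold change of 0.014 had a standard error of 0.038 and a 95% interval from -0.069 to 0.096, or 0.953 to 1.07 times the TNF-α level. A fall of the size seen in Cd83 lies outside this interval. Counting error was small here at 0.611%, so the spread between libraries set the precision. The sign turned to -0.012 without TNF-α replicate 2.

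Vcam1, which binds the integrin α4β1, was also not called. Its 3 TNF-α libraries held 4400, 4123 and 4414 estimated counts, and the 3 TNF-α+NFL libraries held 4361, 3697 and 4457. TNF-α+NFL replicate 2 was the lowest of the 6, and the other 5 lay between 4123 and 4457 counts. In CPM the means were 221 ± 11.03 and 213 ± 20.6 (SD, n = 3 each), with a log2 fold change of -0.051, a standard error of 0.069 and a 95% interval from -0.21 to 0.11. Without TNF-α+NFL replicate 2 the value was 0.027, so its sign rested on that library. All 6 estimated counts of Vcam1 were fractional, as happens when an estimate splits reads between transcripts or genes.

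The adhesion pair moved together from library to library. The deviations of Icam1 and Vcam1 from their group means had a Pearson correlation of 0.76 over the 6 libraries, while those of Cd83 had -0.49 with Icam1 and -0.35 with Vcam1. These describe only 6 points, after scaling to library size, and replicate 2 was the lowest of each group for both Icam1 and Vcam1. The ratio of Icam1 to Vcam1 TPM was 7.04, 7.30 and 7.25 in the TNF-α group and 7.22, 8.31 and 7.16 in the TNF-α+NFL group. TNF-α+NFL replicate 2 stood above the rest, and the groups otherwise overlapped.

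Cd40 was near the lower limit of what these libraries can measure. Its estimated counts were 20.3, 22.1 and 23.4 in the TNF-α libraries and 18.7, 19.3 and 17.3 in the TNF-α+NFL libraries. The groups did not overlap, with means of 1.11 ± 0.0582 and 0.936 ± 0.0613 CPM (SD, n = 3 each), while counting error in a single library of this depth is 21.4% and 23.3%. The log2 fold change was -0.24 with a standard error of 0.24 and a 95% interval from -0.76 to 0.27, which holds both the Cd83 value and 0. A difference of the size measured was not detectable at this depth. Its counts were fractional in all 6 libraries.

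Cd274 was also sparse. The TNF-α libraries held 75, 78 and 87 estimated counts and the TNF-α+NFL libraries 79, 85.1 and 83.3. The groups overlapped, with mean CPM of 4.09 ± 0.267 and 4.20 ± 0.161 (SD, n = 3 each). The log2 fold change was 0.039 with a standard error of 0.13 and a 95% interval from -0.25 to 0.32. This is 0.843 to 1.25 times the TNF-α level, and a fall as large as that of Cd83 lies outside it.

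**Figure D3:**
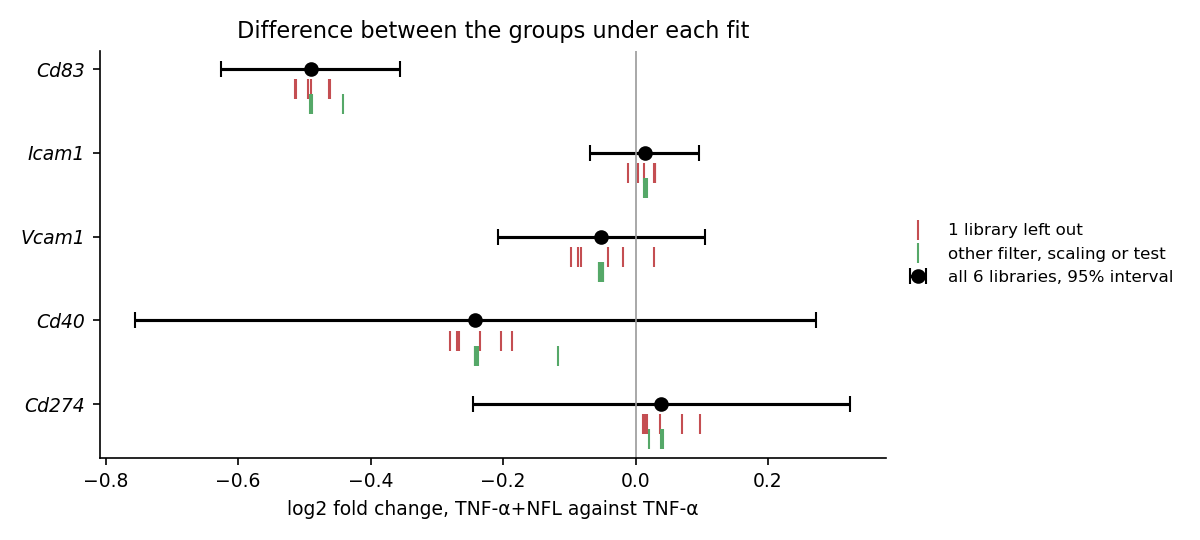
Log2 fold change of each gene (TNF-α+NFL against TNF-α). Black points and bars are the fit to all 6 libraries with its 95% interval, red ticks the fits with 1 library left out, and green ticks the fits with another filter, scaling or test, 1 of them on the log2(FPKM + 1) scale. All Cd83 values lie below 0, from -0.51 to -0.44, and the intervals of the other 4 genes include 0.

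Genes whose pattern over the 6 libraries was most like that of Cd83 were looked for among 9092 tested genes of at least 10 CPM, by Pearson's r of log2 CPM. The highest was Ftl1, ferritin light chain, at r = 0.995, followed by Cpt1c (0.994), the transcription factor Osr1 (0.993), Tapbpl (0.993) and Clptm1 (0.992). Osr1 was called lower at a log2 fold change of -0.23 (edgeR adjusted p = 0.022), and the other 4 were not called. The likeness is in shape and not in size, since the log2 fold change of Clptm1 was -0.044 and that of Ftl1 -0.14. On log2(FPKM + 1) the order changed, with Osr1 in place 1, Ftl1 in 4, Tapbpl in 14, Cpt1c in 22 and Clptm1 in 52. Each of the 5 had a Spearman's rho of 0.943, while 24 genes had the rank order of Cd83 itself. A value above 0.95 was reached by 65 genes, and Cd40, the closest of the other 4 surface molecule genes, had 0.84.

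Genes that work with the 5 molecules were counted from lists of their partners, relatives and regulators. The first list held other immunoglobulin-family costimulatory and checkpoint molecules, of which 10 of 15 were tested. None was called by edgeR or limma-voom, 2 had an unadjusted p under 0.05, and the median log2 fold change was 0.020, against -0.0035 over all genes tested. DESeq2 also called none, but could not call those with fewer counts than Cd83, such as Icoslg, Cd80 and Cd200. Cd47, the "do not eat me" signal read by macrophages, was the most abundant at 193 and 191 TPM with a log2 fold change of 0.018. Cd48 (0.12), Cd276, also called B7-H3 (-0.045), and Cd80, which can bind the Cd274 protein on the same cell (-0.11), were not called either. Icoslg had the highest value of the list, 0.57 with a standard error of 0.14 and an adjusted p of 0.094 in the edgeR fit, and was picked out after its value was seen. Pdcd1lg2, the other ligand of PD-1, had 2 counts in 2 libraries and 0 in the rest.

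Relatives of Cd40 in the TNF receptor superfamily gave 1 called gene, in the higher direction, among 11 tested of 18 listed, beside 0.408% called higher of all genes tested. Tnfrsf11b, the secreted decoy receptor osteoprotegerin, was higher in TNF-α+NFL by 0.30 on the log2 scale (standard error 0.046, edgeR adjusted p = 0.010, n = 3 libraries per group), rising from 151 to 185 CPM. It kept the call in 2 of the 6 fits with a library left out and lost it without TNF-α replicate 2 or any 1 of the TNF-α+NFL replicates, and with limma on log2(FPKM + 1). The 2 receptors for TNF-α itself were not called, with -0.070 for Tnfrsf1a and -0.088 for Tnfrsf1b. The most abundant, Tnfrsf12a and Ltbr, were at -0.069 and -0.025, and the median of the list was -0.069. The adaptors and kinases that Cd40 signals through held 0 genes called by edgeR or limma-voom among 14 tested, and 1 with an unadjusted p under 0.05. DESeq2 also called 0, but could not call those with fewer counts than Cd83, such as Traf5 and Traf6. The median over the 14 was 0.0045. Tank, Birc3 and Traf1, the most abundant of them per length, stood at 0.12, -0.098 and -0.095.

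Relatives of Icam1 and Vcam1 among the adhesion molecules also gave 1 called gene, of 14 tested and 23 listed, beside the same 0.408% called higher of all genes, with a median of 0.012. An unadjusted p under 0.05 was found for 7 of the 14, in both directions, beside 1472 of all 13250 genes tested. Mcam, an immunoglobulin-family adhesion molecule of vessels and pericytes, was higher by 0.37 (standard error 0.051, edgeR adjusted p = 0.0056), from 30.3 to 39.2 CPM. It kept the call in 3 of 6 fits, and lost it without TNF-α replicate 2, TNF-α+NFL replicate 1 or TNF-α+NFL replicate 2, and with limma on log2(FPKM + 1). Thy1, Cd81 and Cd151 were the most abundant, at 0.095, -0.093 and -0.040. Icam4 and Icam5, the other Icam genes with enough counts, stood at -0.12 and 0.016 with standard errors of 0.21 and 0.26.

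Among the partners that bind the 5 proteins, 6 of 16 were tested and 1 was called higher, where 0.408% of all genes tested were. Itgb1, the β chain of the Vcam1 receptor, was higher by 0.20 (standard error 0.037, edgeR adjusted p = 0.028), from 2503 to 2884 CPM, and kept the call only without TNF-α replicate 1 of the 6 left-out fits. It was also not called with the replicate number as a block or with limma on log2(FPKM + 1). Itga4, the α chain of the same receptor, was at 0.28 with a standard error of 0.11 and was not called. The chains of the leukocyte receptors of Icam1 were nearly absent, with at most 6 counts of Itgam and 1 of Itgal in any library. Itgb2, their shared chain, had 15.8 to 31.1 counts.

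Proteins that hold the 5 molecules in the membrane, shed them or set their stability gave 20 tested genes and 0 calls by edgeR or limma-voom, with 2 by DESeq2, which called 95 genes higher and 53 lower of all 13250, and 5 at an unadjusted p under 0.05. The median was 0.031. Flna and Actn1, which link membrane proteins to actin, and the small GTPase Rac1 were the most abundant at 0.15, 0.11 and -0.011. Regulators of the 5 genes, among them NF-κB, AP-1, STAT and IRF proteins and the NF-κB inhibitors Nfkbia, Nfkbie and Tnfaip3, gave 26 tested genes. Of these, 0 were called by edgeR or limma-voom, and 3 had an unadjusted p under 0.05. DESeq2 also called 0, but could not call those with fewer counts than Cd83, such as Rel and Irf8. The median over the 26 was 0.0074. Junb, Nfkbia and Cebpb led the list in TPM at -0.075, -0.054 and -0.050, and Rela and Nfkb1, the NF-κB subunits of the classical dimer, were at 0.037 and 0.010.

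Among other targets of TNF-α and NF-κB signaling, most of them secreted proteins, 25 were tested, of which 2 were called lower and 0 higher, beside 0.204% and 0.408% of all genes tested. An unadjusted p under 0.05 was found for 7 of them, 17 had a negative log2 fold change, as did 6865 of the 13250 genes tested, and the median was -0.057. Mmp13, a collagenase of cartilage breakdown, was at -0.31 (standard error 0.050, edgeR adjusted p = 0.017), and Ptgs2, the inducible cyclooxygenase, an enzyme inside the cell, at -0.26 (0.051, edgeR adjusted p = 0.039). Both calls were lost with the replicate block and with limma on log2(FPKM + 1). Mmp13 kept its call only without TNF-α replicate 3 and Ptgs2 only without TNF-α replicate 1 among the left-out fits. The most abundant, Mmp3, Ccl2 and Ccl7, were at -0.14, -0.057 and -0.078 and were not called.

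**Figure D4:**
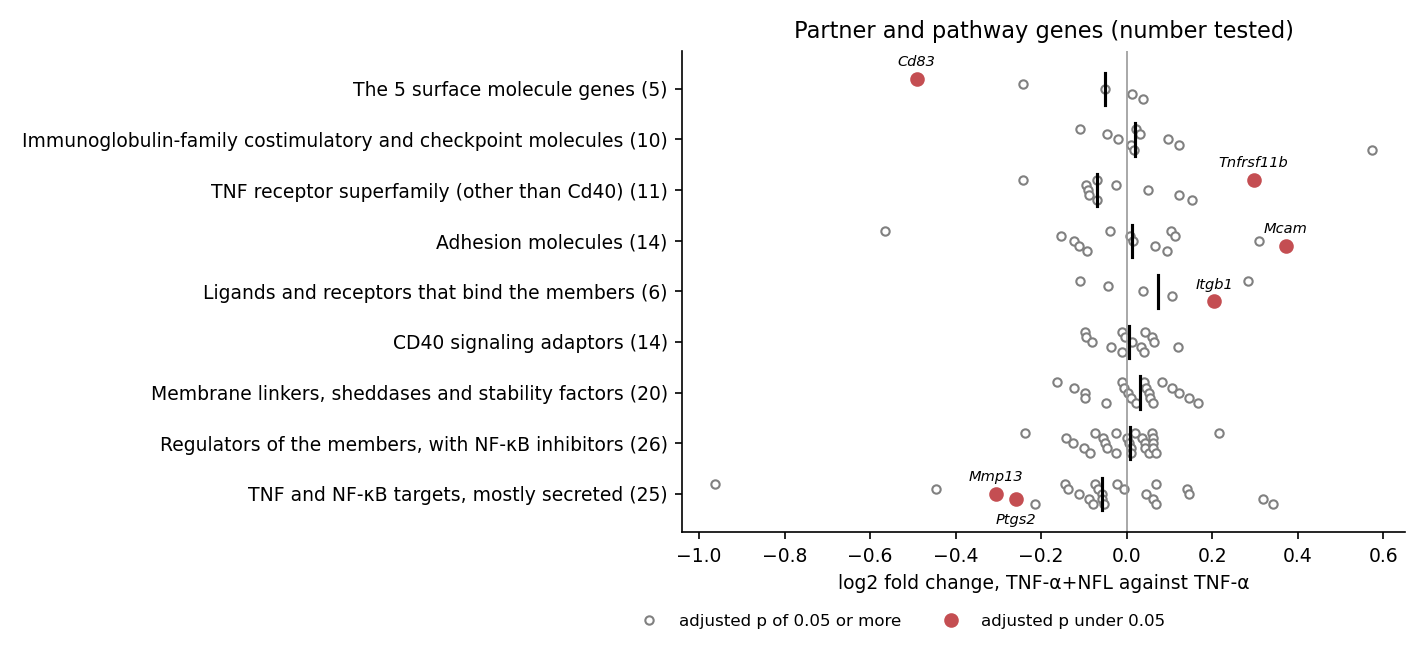
Log2 fold change (TNF-α+NFL against TNF-α) of the 5 surface molecule genes and of each tested gene in the partner and pathway lists, with the number tested in brackets. Filled red points passed the call, open points did not, and black bars are medians. List medians lie between -0.069 and 0.073, and 6 genes in all are filled, among them Cd83 at -0.49.

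The labelled cell type was checked against its markers. Chondrocyte genes Col2a1, Acan and Sox9 were present at 324 counts or more for Col2a1 and Acan and at 165 or more for Sox9, while Matn1 and Cnmd, markers of mature cartilage, had at most 1 and 4.1 counts. Prg4 and Col11a1 were the most abundant of the 15 tested of 17, none was called by edgeR (3 at an unadjusted p under 0.05, 2 called by DESeq2 and 1 by limma-voom, which called 56 genes higher and 28 lower of all 13250), and the median was 0.070. On the TPM scale, Prg4 averaged 1140 in the TNF-α and 1060 in the TNF-α+NFL group. In the same order, Col2a1 averaged 7.72 and 9.23, Acan 5.11 and 5.55, and Sox9 4.42 and 4.66. Among fibroblast genes, Vim averaged 4205 and 4261 TPM and Col1a1 1223 and 1308 TPM. Dcn and Fap were lower at 70.0 and 55.7 TPM in the TNF-α group. Of the fibroblast genes, 0 of 10 were called by edgeR, DESeq2 or limma-voom (2 at an unadjusted p under 0.05). Endothelial markers, which matter for Icam1 and Vcam1, summed to 3.12 to 3.27 counts in every 1000000 in the TNF-α group and 3.23 to 4.11 in the other, and Kdr was at 0 in all 6 libraries. Of the 9 endothelial markers in the table, 2 were tested and 0 were called by edgeR or limma-voom or had an unadjusted p under 0.05. Both tested markers had far fewer counts than Cd83, so DESeq2 could not call them. Lymphocyte markers summed to 0.408 to 0.836 and 0.378 to 0.594 on the same scale, and none had enough counts to test. Fewer cells of a type and less RNA per cell cannot be told apart in such bulk libraries.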

How the data were processed

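The 6 libraries of rat chondrocytes (3 TNF-α, 3 TNF-α+NFL, grouped by title) were sequenced by the submitters as single-end 50-base reads after oligo(dT) selection. The submitters' processing notes name HISAT2 2.0.4, Bowtie2 2.2.5, RSEM 1.2.12 and the Rnor_6.0 build, without roles, and no strand setting is given, so reads of overlapping antisense genes cannot be told apart. The authors deposited estimated counts per gene, not normalized, for 18420 genes, with FPKM values and TPM values scaled to transcript length. Between 27.3% and 27.96% of the estimated counts of a library were fractional, and genes with near-identical copies are uncertain.

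Counts were rounded and fitted in R 4.3.3 with edgeR 4.0.16 (filterByExpr, TMM, robust quasi-likelihood, two-sided), with Benjamini-Hochberg adjustment over 13250 genes. Standard errors were taken as the log2 fold change over the square root of F. The common biological coefficient of variation was 6.39%, and the fit was tested on simulated data. DESeq2 1.42.0, limma 3.58.1 (voom, and log2(FPKM + 1)), other filters and scalings, a replicate block and leaving out each library were alternatives. Deposited TPM values were used to compare genes, and CPM to compare libraries. Of the gene identifiers, 17068 matched the GRCr8 RefSeq gene table, whose coordinates are not printed because the builds differ. Promoter sequences and their positions are those of RefSeq for GRCr8.

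The 5 genes, the lists and the tests were chosen with earlier results of these data known. Named beside the 5 were called genes of each list, its most abundant genes per length, and the 5 genes most like Cd83 over the libraries. Further list genes, such as Icoslg, Tnfrsf1b, Itga4 and Rela, were named for their role or value after their values were seen. DESeq2 without independent filtering and the p65 and c-Rel search were added after seeing the data.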

Additional observations from a re-analysis of the deposited data

How the results depend on the processing

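Cd83 stayed called lower in the 8 alternatives with another filter, scaling, test or replicate block that gave it an adjusted p, and in 5 of 6 fits with a library left out, where its log2 fold change ran from -0.51 to -0.46. The call was lost without TNF-α+NFL replicate 1, at -0.46. Under DESeq2's default filter Cd83 had no adjusted p, and the run without that filter was chosen after seeing the data. With the replicate block its value was -0.49. Same-numbered deviations correlated at 0.030, -0.024 and 0.10, and the labels do not say whether the replicate numbers mark a shared animal, culture or day. Icam1 ran from -0.012 (sign turned, without TNF-α replicate 2) to 0.030, and Vcam1 from -0.098 to 0.027 (sign turned, without TNF-α+NFL replicate 2), neither called in any fit. Cd40 and Cd274 kept their sign in all fits made and were called in none.

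Counts over all genes moved more. From 54 higher and 27 lower genes, calls went to 84 and 48 when low counts were kept, 95 and 53 with the DESeq2 Wald test, 3 and 3 with limma on log2(FPKM + 1), 25 and 9 with the replicate block, and 16 and 7 at an adjusted p under 0.01. DESeq2 without independent filtering called 79 higher and 46 lower. Leaving out 1 library gave from 5 to 460 higher and from 0 to 470 lower genes. The highest came without TNF-α replicate 1, and the 0, an edgeR count, without TNF-α+NFL replicate 1, where 1035 genes had an unadjusted p under 0.05. The causes were not tested. Depth limits Cd40 most, at 17 to 23 counts.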
